A study of Mus musculus with 17 samples.

Results

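The transcripts of 8 genes of haematopoietic stem and progenitor cells, Cd34, Kit, Flt3, Ly6a, Myb, Gata2, Gfi1 and Sox4, were followed in RNA-seq of bone marrow macrophages (BMMs) and of the preosteoclasts (preOCs) grown from them. They are 8 of the 41388 genes in the count tables, chosen on measured values, because Cd34 counts were higher in Bap1LysM than in Bap1flox BMMs, so the genotype differences of all 8 in BMMs, and every comparison of Cd34 with BMMs, stand here as a description, without a test. Bap1flox cells carry loxP sites in Bap1, which encodes a nuclear deubiquitinase, and no Cre. Bap1LysM cells carry the same floxed alleles together with Cre recombinase knocked into lysozyme M (Lyz2), a gene of macrophages and neutrophils. Recombination is thereby directed to those lineages, and both genotypes share the loxP sites. BMMs received M-CSF alone, and preOCs, labelled OC, received M-CSF and 100 ng/ml RANKL for 24 h. Per the study the preOCs came from male mice 20 weeks old, while the age and sex behind the BMM libraries were not given in the sources used here. The 17 libraries are 3 of Bap1flox BMMs, 3 of Bap1LysM BMMs, 6 of Bap1flox preOCs (replicates 1 to 6) and 5 of Bap1LysM preOCs (replicates 1, 2, 4, 5 and 6). The study describes its preOC samples as biologically independent, but the labels tie no library to a mouse and the BMM libraries are not described, so p-values measure the spread between libraries.

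Blood cells descend from stem and multipotent progenitor cells, which are recognised by a small set of surface proteins and held in their state by a network of transcription factors. CD34 is a surface sialomucin, KIT and FLT3 are receptor tyrosine kinases for stem cell factor and FLT3 ligand, and Ly6a encodes Sca-1, a membrane protein anchored through lipid that interferon also induces in many cell types. MYB, GATA2, GFI1 and SOX4 are DNA-binding factors: MYB and GATA2 sustain proliferating progenitors, GFI1 is a transcriptional repressor that neutrophil development needs, and SOX4 acts in early lymphoid and many non-haematopoietic cells. Most of these genes are shut down as progenitors become macrophages under M-CSF, and low levels are therefore usual in BMMs.

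In preOCs, 4 of the 8 genes were higher in Bap1LysM than in Bap1flox cells: Cd34 by 6.41-fold, Kit by 3.40-fold, Gfi1 by 3.14-fold and Myb by 2.43-fold. None was lower. The calls of Gfi1 and Myb were close to the threshold: with 1 library left out, Gfi1 passed in 3 and Myb in 4 of 11 fits, and Gfi1 did not pass when library set was added to the model (adjusted p = 0.0541, edgeR). Of all 15446 genes tested in preOCs, 6% were higher and 7.48% lower by the same rule (edgeR's quasi-likelihood test, adjusted p under 0.05). The 8 genes were chosen with earlier results of these data known. RANKL raised Gata2 in both genotypes. Kit passed the same test in Bap1LysM cells only narrowly (adjusted p = 0.0458, edgeR), and its response was not shown to differ from that of Bap1flox cells (adjusted p = 0.467). Ly6a varied widely between replicates, and its highest value in each group was in replicate 1. Each gene's level in every library is plotted as CPM, the counts divided by the library's total and scaled by a constant.

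**Figure D1:**
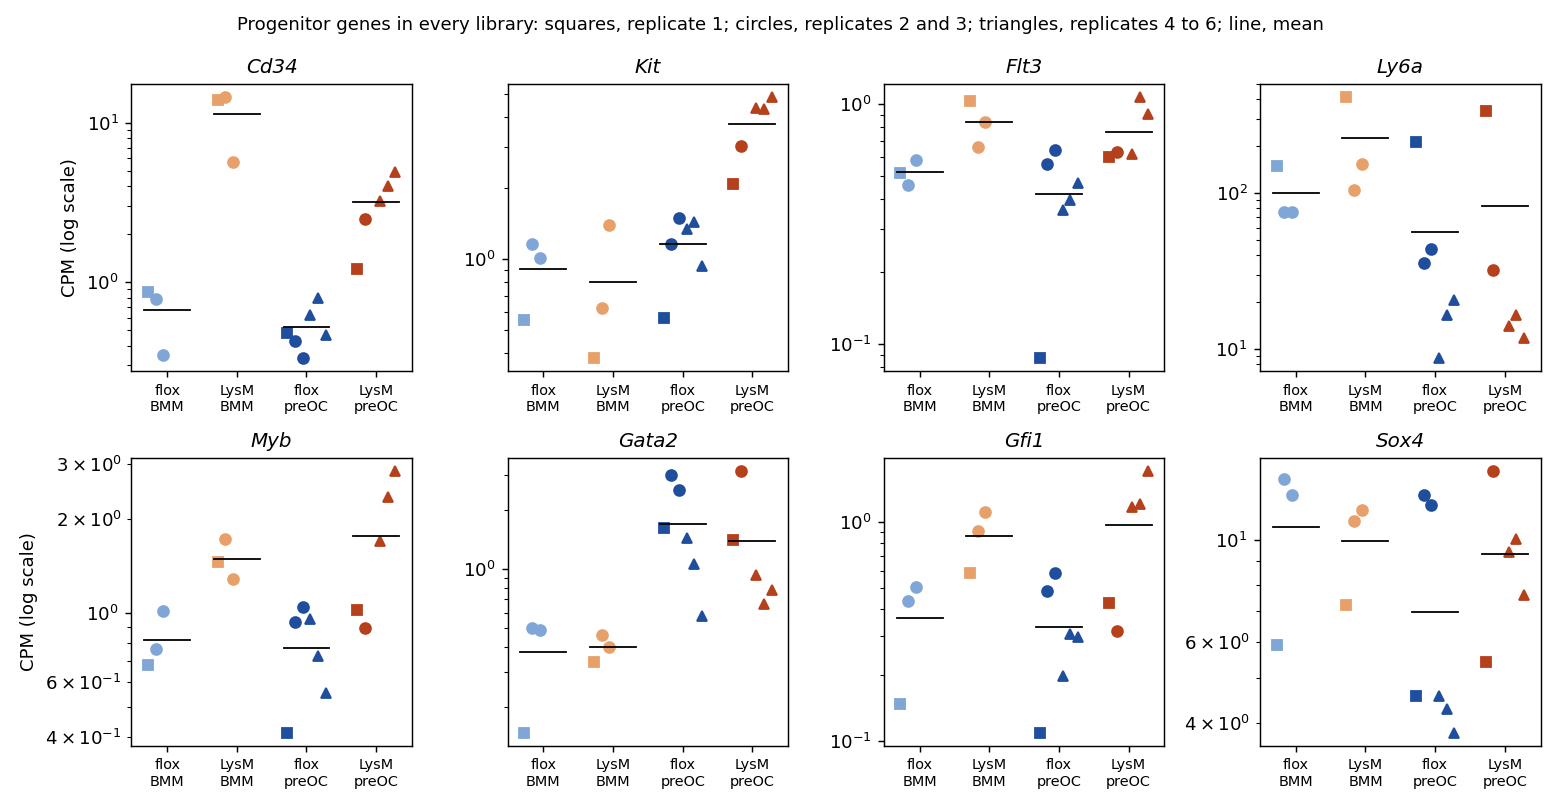
The 8 genes in all 17 libraries, with CPM on a log axis and 1 point per library, the 4 groups side by side, and a line at each group's mean. Cd34 lay between 5.66 and 14.6 CPM in Bap1LysM BMMs and at or below 0.867 CPM in every Bap1flox library.

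The genes lie apart in the mouse genome, on the GRCm38 coordinates of the tables: Cd34 (ENSMUSG00000016494) at chr1:194938821-194961292, Kit (ENSMUSG00000005672) at chr5:75574916-75656722, Flt3 (ENSMUSG00000042817) at chr5:147330741-147400489, Gfi1 (ENSMUSG00000029275) at chr5:107716657-107726036, Gata2 (ENSMUSG00000015053) at chr6:88193891-88207030, Myb (ENSMUSG00000019982) at chr10:21124936-21160905, Sox4 (ENSMUSG00000076431) at chr13:28948919-28953713 and Ly6a (ENSMUSG00000075602) at chr15:74994877-74998031. All are protein coding. Counts are over the exons of each gene, from 1 exon block in Sox4 to 24 in Flt3.

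The sequence ahead of the start of transcription was read for those whose preOC levels passed the test and whose RefSeq window lies mostly outside the annotated gene. Bases of a window inside the gene are not printed, nor is a further, overlapping window of Kit. Promoter windows of 250 bases upstream of the start were in RefSeq's GRCm38.p6 set for 7 of the 8 genes, and Ly6a was the other. Motifs were searched on both strands, and matches are in capitals. The GATA motif was searched as AGATAA or as TGATAA, and the forms of it that end in G, which are AGATAG as well as TGATAG, were counted with these. The core of the ETS motif was searched as GGAAG. The motifs do not overlap in the windows printed. Printed from 5′ to 3′ on each gene's strand, and ending before the annotated gene (79 bases before it for Myb), they read as follows.
Cd34, chr1:194938571-194938818, plus strand: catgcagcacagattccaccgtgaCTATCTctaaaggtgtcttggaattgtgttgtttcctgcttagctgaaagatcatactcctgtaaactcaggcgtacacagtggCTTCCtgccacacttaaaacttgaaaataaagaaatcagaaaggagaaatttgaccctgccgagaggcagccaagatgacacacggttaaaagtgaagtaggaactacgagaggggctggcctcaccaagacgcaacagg
Kit, chr5:75574737-75574915, plus strand: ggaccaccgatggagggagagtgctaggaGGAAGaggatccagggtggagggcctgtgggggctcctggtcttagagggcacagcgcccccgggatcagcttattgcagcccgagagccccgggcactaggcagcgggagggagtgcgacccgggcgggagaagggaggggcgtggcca
Myb, chr10:21160985-21161234, minus strand: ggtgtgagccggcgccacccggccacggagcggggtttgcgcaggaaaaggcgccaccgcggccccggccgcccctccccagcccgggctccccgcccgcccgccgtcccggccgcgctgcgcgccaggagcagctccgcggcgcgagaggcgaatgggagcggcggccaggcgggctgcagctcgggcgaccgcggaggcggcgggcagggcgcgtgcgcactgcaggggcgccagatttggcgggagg

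The Cd34 sequence holds the only GATA match among the windows of the 7 genes, read on the opposite strand as CTATCT, and 1 ETS match. A GATA match occurs in 26.6% of 32817 RefSeq promoter windows of the same length and an ETS match in 64.1%. Kit holds 1 ETS match, Flt3 holds 1 and Sox4 holds 2, while the window of Myb and the first windows of Gata2 and Gfi1 hold neither set of letters. The RUNX motif, TGTGGT, is found in 14% of all windows and in none of the 7 genes' windows. The Myb window is rich in CpG, with 40 CpG in 250 bases and an observed over expected ratio of 0.975, against 6 and 0.446 for Cd34 and a median of 0.373 over all windows. These matches describe letters and not bound sites.

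In all, the libraries held 37967542 to 61369441 counts, with a median of 48098798. Bap1 transcript was 83.3 ± 1.16 CPM (SD, n = 3) in Bap1flox BMMs and 76.2 ± 1.25 (n = 3) in Bap1LysM BMMs, and 86.9 ± 9.20 (n = 6) against 70.8 ± 12.2 (n = 5) in preOCs, a count over the whole gene that does not show which exons are lost. Lyz2, where Cre sits, was at 0.146% to 0.436% of the Bap1flox mean in all Bap1LysM libraries except replicate 1, where it was at 42.8% in BMMs and 75.1% in preOCs. The libraries labelled Bap1LysM replicate 1 therefore stand apart from the rest of their groups, and how far their cells had lost Bap1 was not settled by these counts. The study gives the Cre allele of Bap1LysM mice as heterozygous, and what lies behind the Lyz2 level of either kind of library was not tested. Without Bap1LysM preOC replicate 1 the log2 fold changes of the 8 genes between genotypes were 2.89 for Cd34, 1.92 for Kit, 1.02 for Flt3, -0.26 for Gata2, 1.43 for Myb, 1.84 for Gfi1, 0.65 for Sox4 and -1.52 for Ly6a. The same 4 genes passed. Replicates 1 to 3 and 4 to 6 form separate library sets by the form of their names, with mitochondrial transcripts at 0.481% to 1.074% of counts in the first set and 2.364% to 5.264% in the second. Genotypes were therefore compared in each set of preOCs too, 3 against 2 libraries and 3 against 3. Within replicates 4 to 6 the mitochondrial share was 2.36% to 3.64% in Bap1flox and 3.38% to 5.26% in Bap1LysM preOCs. The share of ribosomal RNA there was 0.1374% to 0.2093% and 0.2455% to 0.3592%. What part these shares have in the genotype differences of that set was not tested.

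Most of the genes were scarce. Per length of transcript, as RPKM (CPM divided by exon length in kilobases), Ly6a was the most abundant in each group, with a mean of 83.5 ± 35.4 (SD, n = 3) in Bap1flox BMMs. Sox4 followed there at 2.23 ± 0.874, and the remaining 6 lay between 0.0670 for Flt3 and 0.255 for Cd34, each overlapping its neighbour in the order. In Bap1LysM BMMs Cd34 stood at 4.35 ± 1.91 RPKM, above the mean of Sox4 (2.08 ± 0.498) though their libraries overlapped. All 8 genes passed the minimum of a mean of 10 counts in each fit. Nevertheless, counts went down to 4 reads for Flt3 and 5 for Gfi1 in single libraries, where counting alone gives a coefficient of variation of 50% and 44.7%.

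In Bap1flox BMMs Cd34 was at 0.867, 0.787 and 0.351 CPM in replicates 1 to 3, from 47, 36 and 18 reads. In Bap1LysM BMMs it was at 13.9, 14.6 and 5.66 CPM, from 622, 663 and 296 reads. The lowest Bap1LysM library was thus above the highest Bap1flox library, and the fitted difference was 4.13 on the log2 scale (17.5-fold), or 3.90 without Bap1LysM replicate 1. This is the difference by which the genes were chosen. Endothelial cells and stromal cells also make CD34. The summed CPM of 12 endothelial markers was 39.5 to 43.0 in Bap1flox BMMs and 22.1 to 29.9 in Bap1LysM BMMs, and that of 12 stromal markers was 686 to 3283 and 441 to 1488. Of 10 endothelial genes fitted, 4 had a BMM difference above 0, among them Flt1 (1.499) and Esam (1.22), and 6 below. Of 11 stromal genes fitted, 10 were below 0 and Dcn was above (0.32). The part of such cells in the Cd34 values was not tested.

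In preOCs, whose replicates 4 to 6 have no counterpart among the BMM libraries, Cd34 was again higher in Bap1LysM cells. Its lowest, median and highest values in the 6 Bap1flox libraries were 0.333, 0.473 and 0.793 CPM. In Bap1LysM replicates 1, 2, 4, 5 and 6 it was at 1.22, 2.502, 3.23, 4.04 and 4.96 CPM, and the groups did not overlap. A higher Bap1LysM group without overlap was seen for 2.54% of all genes in this comparison, and a lower one for 6.8%. The log2 fold change was 2.68 (SE 0.36), with an adjusted p of 0.000957 by edgeR. The difference was 2.22 (unadjusted p = 0.00128, adjusted p = 0.188, edgeR) within replicates 1 to 3, where none of 15697 genes passed (2555 at an unadjusted p under 0.05), and 2.73 (adjusted p = 0.000156, edgeR) within replicates 4 to 6, where 13.3% of genes were higher and 16.2% lower. It passed with each library left out in turn, between 2.46 and 2.89. In bulk RNA a larger share of cells with CD34 and more transcript per cell cannot be told apart.

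Ordered by group, Cd34 was highest in Bap1LysM BMMs (11.4 ± 4.99 CPM, SD, n = 3), then in Bap1LysM preOCs (3.19 ± 1.43, n = 5), and these did not overlap. Bap1flox BMMs (0.668 ± 0.278, n = 3) and Bap1flox preOCs (0.520 ± 0.163, n = 6) came last and overlapped. Of 15610 genes compared, those whose profile over the 17 libraries lay nearest to Cd34 were Cd300e, Kitl, Ighv10-1, Tmem117 and Lrrc4, by the mean absolute difference of centred log2 CPM (0.68 for Cd300e and 0.75 for Kitl, against a mean absolute deviation of 1.57 for Cd34 itself). Cd300e, a receptor of monocytes, went from 0.344 CPM in Bap1flox to 3.53 in Bap1LysM BMMs and from 0.275 to 1.07 in preOCs. The points share libraries and depth, and part of this likeness rests on the BMM difference that chose Cd34.

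Kit differed between genotypes in preOCs but not visibly in BMMs. It was at 0.554, 1.16 and 1.01 CPM in Bap1flox BMMs and 0.380, 0.618 and 1.395 CPM in Bap1LysM BMMs, and these overlap. In Bap1flox preOCs its lowest, median and highest values were 0.565, 1.26 and 1.497 CPM. Bap1LysM preOCs held 2.08, 3.00, 4.35, 4.34 and 4.88 CPM in replicates 1, 2, 4, 5 and 6, all above the Bap1flox libraries. The log2 fold change in preOCs was 1.77 (SE 0.29, adjusted p = 0.0028, edgeR). It was 1.32 (unadjusted p = 0.0218, adjusted p = 0.251, edgeR) within replicates 1 to 3 and 1.91 (adjusted p = 0.000232, edgeR) within replicates 4 to 6, and passed with each library left out. In order, Bap1LysM preOCs stood above the other 3 groups without overlap, and those 3 overlapped one another.

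Kitl, which encodes stem cell factor, the ligand of KIT, was the surface and signalling gene with the smallest p in preOCs. Bap1flox preOCs held 6.73 ± 0.946 CPM of it (SD, n = 6) and Bap1LysM preOCs 23.2 ± 5.08 (n = 5), a log2 fold change of 1.86 (SE 0.18, adjusted p = 0.000352, edgeR). In BMMs it was at 9.73 ± 3.98 CPM (n = 3) and 48.0 ± 22.9 (n = 3). Hence the transcripts of ligand and receptor were both higher in Bap1LysM preOCs. Among 17 genes that carry the signals of KIT and FLT3, 1 was higher, the adaptor Gab2 (0.68, adjusted p = 0.0037, edgeR), and 2 were lower, the feedback inhibitor Spry2 (-0.97, adjusted p = 0.0261) and the phosphatase Ptpn11 (-0.38, adjusted p = 0.043), while 14 did not pass. These counts, 1 and 2 of 17, are near the 6% and 7.48% of all genes. Without Bap1LysM replicate 1 they were 1 and 4, where 1368 and 1756 of all 15437 genes were higher and lower. The median log2 fold change of the 17 genes over all preOC libraries was 0.09, against -0.02 over all genes.

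Mast cells carry KIT and GATA2 as well. Of 10 mast cell markers, Tpsb2, Mcpt4, Cma1 and Mrgprb1 had at most 3 counts in every library, and Cpa3 averaged between 0.0438 and 0.198 CPM across the 4 groups. The summed level of the list was 16.6 to 38.4 CPM in Bap1flox and 20.8 to 53.0 CPM in Bap1LysM preOCs. Most of it was Slc45a3, at 29.7 ± 7.67 CPM (SD, n = 6) and 29.4 ± 13.1 (n = 5). Hdc, the histidine decarboxylase that makes histamine in mast cells and basophils, was higher in Bap1LysM preOCs (log2 fold change 1.91, adjusted p = 0.00411, edgeR), from 0.359 to 1.28 CPM.

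Flt3, the receptor of multipotent and dendritic progenitors, was the least abundant of the 8 genes per length. It was at 0.517, 0.459 and 0.585 CPM in Bap1flox BMMs and 1.03, 0.663 and 0.841 CPM in Bap1LysM BMMs, so that every Bap1LysM library was higher. In preOCs the lowest, median and highest Bap1flox values were 0.0869, 0.432 and 0.645 CPM, and the Bap1LysM libraries held 0.598, 0.632, 0.619, 1.07 and 0.905 CPM. The groups overlapped, and the log2 fold change of 0.94 (SE 0.39) did not pass (adjusted p = 0.136, edgeR). Within replicates 4 to 6 it was 1.12 (adjusted p = 0.0325, edgeR), and voomWithQualityWeights, the study's own method, gave 1.13 (adjusted p = 0.031). Without Bap1LysM BMM replicate 1 the BMM difference of 0.74 was 0.52. Of 7 dendritic cell markers tested in preOCs, 2 were higher in Bap1LysM cells, Ccr7 (2.06, adjusted p = 0.000376), the receptor that guides these cells to lymph nodes, and Zbtb46 (1.14, adjusted p = 0.0311), a factor of classical dendritic cells. Tcf4, a factor of plasmacytoid dendritic cells, was lower (-0.67, adjusted p = 0.0183, edgeR), and 4 did not pass. The summed CPM of the list overlapped, at 209.2 to 358.5 in Bap1flox and 190.1 to 562.3 in Bap1LysM preOCs.

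Myb and Gfi1 behaved alike. Myb was at 0.683, 0.765 and 1.01 CPM in Bap1flox BMMs and 1.46, 1.72 and 1.28 CPM in Bap1LysM BMMs, without overlap. In Bap1flox preOCs its lowest, median and highest values were 0.413, 0.829 and 1.04 CPM. Bap1LysM preOCs held 1.02 and 0.896 CPM in replicates 1 and 2, inside the Bap1flox range, and 1.70, 2.34 and 2.84 CPM in replicates 4, 5 and 6, above it. Gfi1 was at 0.148, 0.437 and 0.507 CPM in Bap1flox BMMs and 0.582, 0.906 and 1.11 CPM in Bap1LysM BMMs. In Bap1flox preOCs its lowest, median and highest values were 0.109, 0.303 and 0.582 CPM. In Bap1LysM preOCs it was at 0.425 and 0.316 CPM in replicates 1 and 2 and at 1.17, 1.22 and 1.71 CPM in replicates 4, 5 and 6. For both genes, then, the libraries of the second set alone were clear of the Bap1flox preOCs. Without Bap1LysM BMM replicate 1 the BMM difference was 0.85 for Myb (0.89 with it) and 1.46 for Gfi1 (1.29 with it). In the BMM comparison, 4 of the 8 genes (Cd34, Flt3, Myb and Gfi1) were higher without overlap, as were 12.4% of all genes, a count that the choice of the genes bears on.

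The log2 fold change in preOCs was 1.28 (SE 0.35, adjusted p = 0.0327, edgeR) for Myb and 1.65 (SE 0.50, adjusted p = 0.0475, edgeR) for Gfi1. Within replicates 1 to 3 it was 0.37 for Myb and 0.03 for Gfi1, and neither passed (adjusted p = 0.713 and 0.987, edgeR). Within replicates 4 to 6 it was 1.65 (adjusted p = 0.00279) for Myb and 2.39 (adjusted p = 0.000912) for Gfi1 by edgeR. The change in the genotype difference from the first set to the second was 1.30 (unadjusted p = 0.0327, adjusted p = 0.553) for Myb and 2.38 (unadjusted p = 0.00837, adjusted p = 0.478) for Gfi1, so that it did not pass over all genes. When library set was added to the model, Gfi1 no longer passed (1.42, adjusted p = 0.0541, edgeR) and Myb did (1.12, adjusted p = 0.0219). Leaving out 1 library, Myb passed only without Bap1flox replicate 3 or 4 or Bap1LysM replicate 1 or 2 (1.04 to 1.46 over all 11 fits, adjusted p 0.012 to 0.092). Gfi1 passed only without Bap1flox replicate 3 or Bap1LysM replicate 1 or 2 (1.35 to 1.88, adjusted p 0.018 to 0.13).

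**Figure D2:**
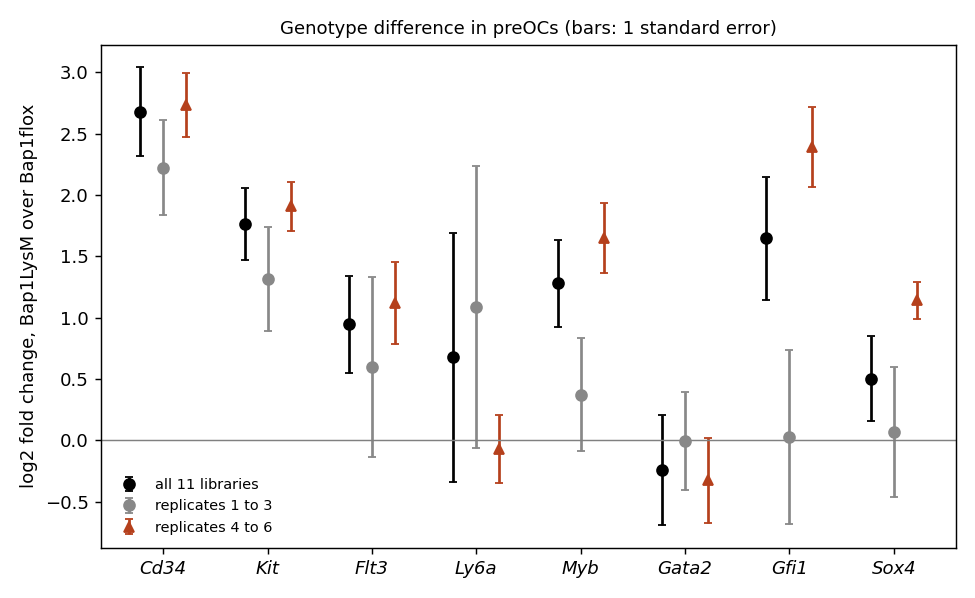
Log2 fold change of Bap1LysM over Bap1flox preOCs for the 8 genes, with bars of 1 standard error, over all 11 libraries and within each library set. Cd34 and Kit stood at or above 1.32 in all 3 fits, whereas Gfi1 was at 0.03 in replicates 1 to 3 and 2.39 in replicates 4 to 6.

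Markers of neutrophils, the lineage in which GFI1 acts, moved with these genes. Of 9 neutrophil markers tested in preOCs, 6 were higher in Bap1LysM cells and none was lower, beside 6% and 7.48% of all genes. Their median log2 fold change was 1.54 against -0.02 over all genes. Those with the smallest p were Lcn2, Ltf, S100a8 and S100a9, which encode granule and cytoplasmic defence proteins (1.499 to 1.62, adjusted p 0.00912 to 0.0146, edgeR). The 3 that did not pass were Cxcr2 (1.07, adjusted p = 0.0537, and 1.25, adjusted p = 0.0147, without Bap1LysM replicate 1), Retnlg (0.82, adjusted p = 0.346) and Mmp8 (-1.07, adjusted p = 0.115, edgeR). Without Bap1LysM replicate 1, 7 were higher, with a median of 1.70, where 8.86% of all genes were higher. The summed CPM of the 10 markers was 98.4 to 236.4 in Bap1flox preOCs. It was 180.9 and 199.5 in Bap1LysM replicates 1 and 2, inside that range, and 598.8, 417.8 and 605.7 in replicates 4, 5 and 6. In BMMs the sum was 239.4 to 291 in Bap1flox and 247.4 to 349.3 in Bap1LysM libraries, so that the groups overlapped. As a description, the differences of the 9 markers between genotypes there lay between -1.33 (Mmp8) and 1.18 (Cxcr2). Those of the 10 granulocyte-monocyte progenitor genes lay between -0.32 and 1.25. The part of neutrophil transcripts in the Gfi1 and Myb values was not tested. The genes nearest to Gfi1 in profile over the 17 libraries were S100a8, S100a9 and Lcn2, at a mean absolute difference of 0.26, 0.30 and 0.32 in centred log2 CPM against a deviation of 0.81 for Gfi1 itself, and S100a8 was also the nearest to Myb, at 0.29 against 0.58.

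Gata2 did not pass between genotypes in preOCs in any fit, and Sox4 passed in some. Gata2 was at 0.148, 0.503 and 0.488 CPM in Bap1flox BMMs and 0.336, 0.464 and 0.401 CPM in Bap1LysM BMMs. In Bap1flox preOCs its lowest, median and highest values were 0.574, 1.52 and 2.99 CPM, and Bap1LysM preOCs held 1.41, 3.13, 0.929, 0.661 and 0.780 CPM. The log2 fold change in preOCs was -0.24 (SE 0.45, adjusted p = 0.761, edgeR). In both genotypes the libraries of replicates 1 to 3 were above those of replicates 4 to 6, with set means of 2.37 and 1.02 CPM in Bap1flox and 2.27 and 0.790 CPM in Bap1LysM preOCs.

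Sox4 was at 5.91, 13.6 and 12.6 CPM in Bap1flox BMMs and 7.23, 11.02 and 11.6 CPM in Bap1LysM BMMs, lowest in replicate 1 of each. In Bap1flox preOCs its lowest, median and highest values were 3.80, 4.57 and 12.6 CPM. Bap1LysM preOCs held 5.42, 14.2, 9.42, 10.1 and 7.60 CPM. The difference over all libraries was 0.50 (SE 0.35, adjusted p = 0.371, edgeR). In replicates 4 to 6 it was 1.14 (adjusted p = 0.000804, edgeR), in a set where 13.3% of all genes were higher and 16.2% lower. A fit with a block for each replicate number gave 0.80 (adjusted p = 0.015, edgeR), and there 13.7% of all genes were higher.

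Ly6a differed widely among replicates of each genotype. In Bap1flox BMMs it was at 149.8, 75.9 and 76.1 CPM and in Bap1LysM BMMs at 414.5, 105.3 and 153 CPM in replicates 1 to 3, so that each Bap1LysM library was above the Bap1flox library of its number although the groups overlapped. In Bap1flox preOCs its lowest, median and highest values were 8.72, 28.1 and 211 CPM, the highest in replicate 1. In Bap1LysM preOCs it was at 337, 31.9, 14.1, 16.5 and 11.7 CPM, again highest in replicate 1. The log2 fold change in preOCs was 0.68 (SE 1.01, adjusted p = 0.701, edgeR). Without Bap1LysM replicate 1 it was -1.52 (adjusted p = 0.2), without replicate 1 of both genotypes -0.38 (adjusted p = 0.59) and by voomWithQualityWeights -0.82 (adjusted p = 0.29), so that no direction can be given in preOCs. In the BMMs the described difference of 1.22 was 0.35 without Bap1LysM replicate 1.

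Genes induced by interferon moved with Ly6a. The summed CPM of 18 such genes was 4014 in Bap1LysM BMM replicate 1 and 3676 in Bap1LysM preOC replicate 1, against 312.2 to 1925 in the other Bap1LysM libraries. Bap1flox preOC replicate 1 had the highest sum of its group, 1972, but Bap1flox BMM replicate 1 had the lowest of its 3, 1406 against 1637 and 1539. In replicates 4 to 6 of both genotypes the sum was 312.2 to 778.5 and Ly6a was at most 20.5 CPM. None of the 18 genes passed between genotypes in preOCs by edgeR. Without Bap1LysM replicate 1, 6 were lower and none higher, with a median of -0.98, where 1756 of all 15437 genes were lower. The nearest profiles to Ly6a were those of Ifit3b, Ifi206 and Ifit3, all interferon-induced, at 0.48, 0.51 and 0.54 against a deviation of 1.53 for Ly6a itself. Whether interferon had a part in the Ly6a values was not tested. Of the 5 other Ly6 genes of chromosome 15 that were tested in preOCs none passed (1 was higher without Bap1LysM replicate 1, as were 8.86% of all genes). The most abundant, Ly6e, was at 1264 ± 454 CPM (SD, n = 6) and 1345 ± 761 (n = 5). Ly6a and its neighbours are close paralogs, and reads that align to several of them were not counted.

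**Figure D3:**
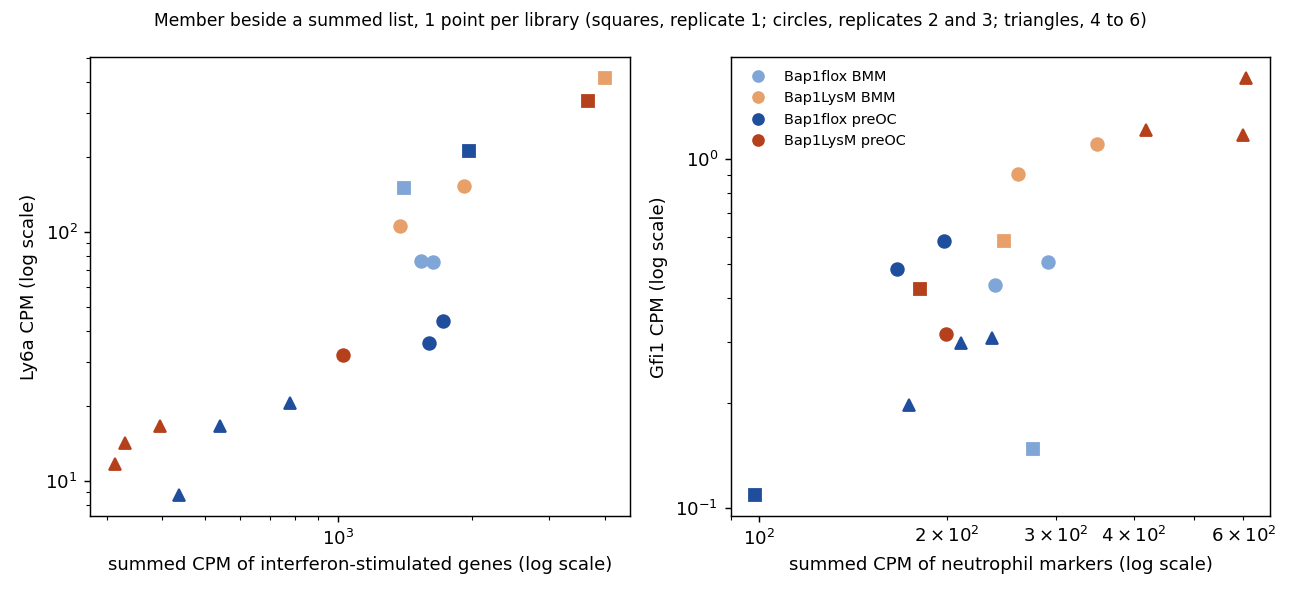
CPM of Ly6a against the summed CPM of 18 interferon-stimulated genes (left) and of Gfi1 against the summed CPM of 10 neutrophil markers (right), both axes on log scales, with 1 point per library. The libraries of Bap1LysM replicate 1 lie at the top of the left panel, and Bap1LysM preOC replicates 4, 5 and 6 at the top of the right panel.

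To place the 8 genes, 59 other genes of progenitors were listed, of which 58 were in the count tables. Of these 51 were tested in preOCs, 11 were higher in Bap1LysM cells and 3 were lower. Thus 11 of 51 stands beside 6% of all genes, and 3 of 51 beside 7.48%, in lists chosen with earlier results of these data known. Of 25 transcription factors, 3 were higher: Etv6 (0.55, adjusted p = 0.00791), Lyl1 (0.87, adjusted p = 0.0297) and Erg (1.90, adjusted p = 0.036), factors of blood stem cells, and Tal1, a partner of GATA factors, was lower (-1.16, adjusted p = 0.00707, edgeR). The list's median was 0.14. Erg was scarce, at 0.190 ± 0.1004 CPM (SD, n = 6) and 0.691 ± 0.316 (n = 5).

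Of 16 surface and signalling genes, 4 were higher: Kitl, Esam (1.58, adjusted p = 0.0123), an adhesion molecule of stem and endothelial cells, Prom1 (2.03, adjusted p = 0.0248), which encodes CD133, and Il6ra (0.58, adjusted p = 0.0371), the interleukin-6 receptor, while Vwf (-0.73, adjusted p = 0.000835), a clotting protein of endothelium and megakaryocytes, and Eng (-0.61, adjusted p = 0.0329), a co-receptor for TGF-β, were lower by edgeR. The list's median was 0.18. All 10 genes of granulocyte-monocyte progenitors had values above 0, from 0.10 to 1.86 with a median of 1.19, and 4 passed: Igfbp4 (0.85, adjusted p = 0.0115), Ms4a3 (1.86, adjusted p = 0.013), and the granule proteins Prtn3 (1.14, adjusted p = 0.0198) and Mpo (1.52, adjusted p = 0.0244, edgeR). Without Bap1LysM replicate 1, 8 of the 10 passed, where 8.86% of all genes were higher. Mpo averaged 12.8 ± 5.62 CPM (SD, n = 6) in control preOCs and 34.8 ± 16.2 (n = 5) in Bap1LysM preOCs. Several of these genes are also made by developing neutrophils, whose markers were higher in the same libraries.

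**Figure D4:**
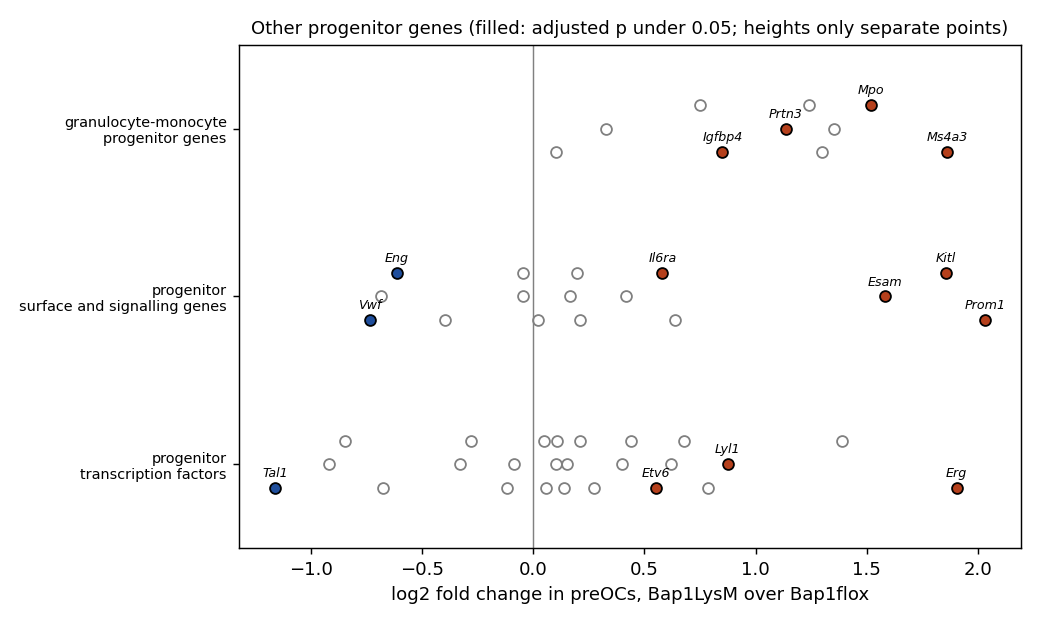
Log2 fold change of Bap1LysM over Bap1flox preOCs for 51 other progenitor genes in 3 lists, 1 point per gene, filled where the adjusted p was under 0.05. Of the filled points, 11 lie above 0 and 3 below.

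The count of higher genes among these 51 depended on the libraries. It was 20 within replicates 4 to 6, 0 within replicates 1 to 3 (where no gene of any kind passed), 17 with the replicate block and 25 by voomWithQualityWeights. The share of all genes called higher in these fits was 13.3%, 0%, 13.7% and 23.2%, so that it moved too. Leaving out a single library gave 5 to 19, with 7 without Bap1flox replicate 2, 6 without Bap1flox replicate 4, 7 without Bap1flox replicate 5, 19 without Bap1LysM replicate 2, 5 without Bap1LysM replicate 4 and 7 without Bap1LysM replicate 5 or 6. Without Bap1LysM replicate 1 it was 16. Over the same fits the share of all genes called higher went from 3.09% (without Bap1LysM replicate 4) to 8.86% (without Bap1LysM replicate 1). Of 18 cell cycle genes, 9 were lower in Bap1LysM preOCs and none was higher, beside 7.48% of all genes lower, with a median of -0.43. Without Bap1LysM replicate 1, 13 were lower, with a median of -0.42, where 1756 of all 15437 genes were lower. In BMMs, where the values are a description, all 18 lay above 0, at 0.26 to 1.27, and their summed CPM was 825.9 to 1173 in Bap1flox and 1254 to 2270 in Bap1LysM libraries, so that the groups did not overlap. The part of the cell cycle in the values of the progenitor genes was not tested.

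The RANKL response was read in replicates 1 to 3, where both BMMs and preOCs were available, with 3 libraries in each group except for 2 of Bap1LysM preOCs. RANKL raised Gata2 in both genotypes. In Bap1flox cells Gata2 went from 0.148, 0.503 and 0.488 CPM to 1.61, 2.99 and 2.52 CPM, a log2 fold change of 2.48 (SE 0.45, adjusted p = 0.00113, edgeR), and in Bap1LysM cells from 0.336, 0.464 and 0.401 CPM to 1.41 and 3.13 CPM, a change of 2.37 (SE 0.48, adjusted p = 0.00411, edgeR). The groups did not overlap in either genotype, as was so for 40.6% of all genes in the higher and 25.9% in the lower direction in Bap1flox cells. Of the 7 genes tested, Cd34 being left out, Gata2 alone passed in Bap1flox cells, where 26.4% of 15735 genes were higher and 25.4% lower after RANKL, 51.8% in all. Its change passed with each library left out, from 2.09 to 2.72 in Bap1flox and from 1.79 to 2.79 in Bap1LysM cells. The genes nearest to Gata2 in profile were Rin1, Foxf2 and Rnd1, each higher in preOCs of both genotypes.

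In Bap1LysM cells Kit also passed, where 18.8% of genes were higher and 15.2% lower, 34% in all. It went from 0.380, 0.618 and 1.395 CPM to 2.08 and 3.00 CPM, without overlap (31.1% of all genes were higher in this way and 20.4% lower), a log2 fold change of 1.55 (SE 0.53, adjusted p = 0.0458, edgeR). In Bap1flox cells the change of Kit was 0.08 (SE 0.49, adjusted p = 0.902, edgeR). The difference between the responses, 1.47 (SE 0.73), did not pass (unadjusted p = 0.0697, adjusted p = 0.467, edgeR). The Kit call was close to the threshold. It held only without Bap1flox BMM replicate 1, Bap1flox preOC replicate 1 or Bap1LysM BMM replicate 3 among the 11 libraries left out in turn (1.21 to 2.23, adjusted p 0.013 to 0.19), was lost without both Bap1LysM replicate 1 libraries (1.42, adjusted p = 0.12, with 1 preOC library left) and by voomWithQualityWeights (1.66, adjusted p = 0.093), and with the replicate block was 2.25 (adjusted p = 0.0037, edgeR).

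**Figure D5:**
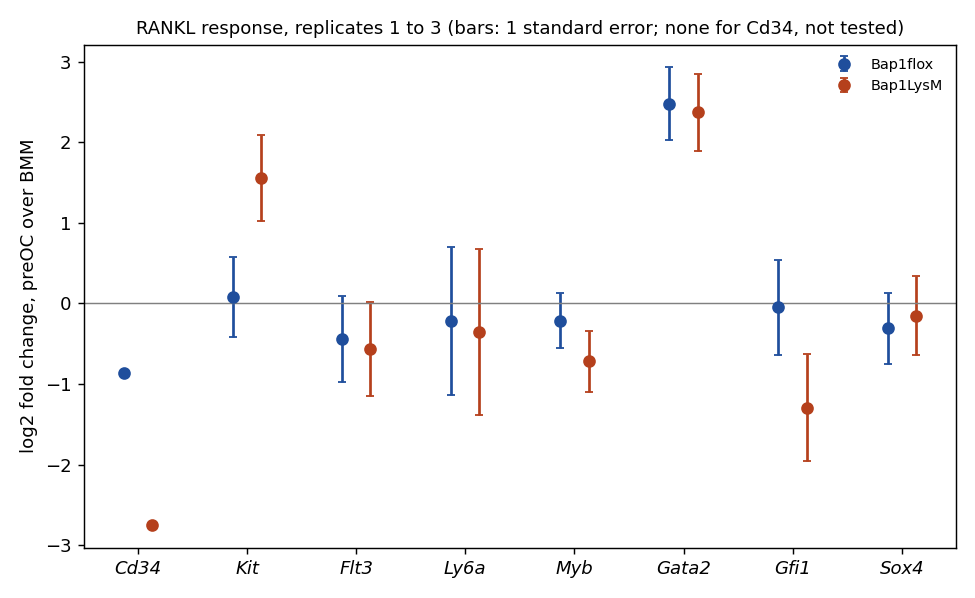
Log2 fold change of preOCs over BMMs of the same genotype in replicates 1 to 3 for the 8 genes, with bars of 1 standard error, and none for Cd34, which was not tested. Gata2 rose in both genotypes, by 2.48 and 2.37, and Kit stood at 0.08 in Bap1flox and 1.55 in Bap1LysM cells.

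Cd34 was lower after RANKL in Bap1LysM cells, at 1.22 and 2.502 CPM in preOCs against 5.66 to 14.6 CPM in BMMs (log2 fold change -2.75, or -2.15 without replicate 1 of either). In Bap1flox cells it was at 0.478, 0.427 and 0.333 CPM in preOCs, overlapping the BMMs (-0.86). These values rest on the BMM libraries by which the genes were chosen and carry no test. The changes of Myb and Gfi1 in Bap1LysM cells were -0.72 (SE 0.38, adjusted p = 0.173, edgeR) and -1.29 (SE 0.66, adjusted p = 0.163, edgeR), with every preOC library below every BMM library, as for Flt3 and for 20.4% of all genes, and in Bap1flox cells -0.21 and -0.05. Without all 4 replicate 1 libraries the Gfi1 change in Bap1LysM cells was -1.81, from a single preOC library. Flt3 and Sox4 passed in neither genotype, at -0.44 and -0.31 in Bap1flox and -0.56 and -0.15 in Bap1LysM cells. Ly6a was at -0.22 (SE 0.91) and -0.35 (SE 1.03), and neither passed. Without all 4 replicate 1 libraries, an exclusion chosen after the data were seen, Ly6a was at -1.10 in Bap1flox and -2.16 in Bap1LysM cells. The latter value rests on a single preOC library, and no test is given.

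Of the 51 other progenitor genes, 18 were lower after RANKL, 9 higher and 24 not past the threshold in Bap1flox cells, and 11 were lower, 6 higher and 34 not past it in Bap1LysM cells. All genes were lower in 25.4% and 15.2% and higher in 26.4% and 18.8%. Lyl1, which was higher in Bap1LysM preOCs, was lower after RANKL in both genotypes, at -3.35 (adjusted p = 1.78e-05) in Bap1flox and -2.31 (adjusted p = 0.000471, edgeR) in Bap1LysM cells. Gfi1b, the paralog of Gfi1 and a factor of erythroid cells and megakaryocytes, named here after its values were seen, was at 0.0656 CPM in BMMs and 10.8 CPM in preOCs of Bap1flox cells, and at 0.136 and 7.65 CPM in Bap1LysM cells, as means of these replicates. The BMM values rest on at most 12 counts a library, so no fold change is given. Of 4 tested markers of erythroid cells and megakaryocytes, 4 were lower after RANKL in Bap1flox cells and 2 in Bap1LysM cells. The response differed between genotypes for none of the 51, and for no gene in the whole table by edgeR, where 1854 had an unadjusted p under 0.05, or by voomWithQualityWeights, where 1031 had. DESeq2 called 106 genes, and of the 8 genes other than Cd34 none had an unadjusted p under 0.05 by edgeR or DESeq2 and 1 had by voomWithQualityWeights.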

How the data were processed

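RNA-seq of 17 libraries was analysed, 6 of BMMs and 11 of preOCs. Per the submitters' processing notes and the study's methods, the authors used STAR 2.5.1a with Ensembl's GRCm38 and featureCounts 1.4.6-p5, keeping reads with a single alignment and a single gene. Whether strand was used is not given in the sources used here, so reads of overlapping antisense genes cannot be told apart. The deposited counts are whole numbers without normalization. Deposited CPM was tested against counts over the library total, and deposited RPKM against CPM over exon length in kilobases, and all 703596 values of each matched to within 0.01%. Symbols were found for 40254 of 41388 genes (97.26%), and 355 ribosomal RNA genes were left out. At these depths the spread between libraries limits most genes (biological coefficient of variation 0.295 in preOCs), and counting error adds to it in the scarcest.

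Genotypes in 11 preOC libraries, and the RANKL response and its difference between genotypes in replicates 1 to 3, were tested with edgeR 4.0.16 in R 4.3.3 (quasi-likelihood test, TMM factors, mean of at least 10 counts, Benjamini-Hochberg adjustment over all genes, threshold 0.05). Standard errors were derived from the fold change and the F statistic. BMM genotypes were fitted without a test. Profiles were compared with a prior count of 2. Promoter windows are RefSeq's for GRCm38.p6, and the exon spans used to end them are those of the tables and GENCODE M21. The members and lists were chosen with earlier results of these data known. All 8 genes were named, with up to 4 genes of each list described by the smallest preOC p among those past the threshold, and the 3 nearest profiles (5 for Cd34). Gfi1b, Cxcr2, Retnlg, Mmp8, Cpa3, Slc45a3, Ly6e, Il6ra, Eng, Flt1, Dcn and the scarce mast cell markers fall outside this rule and were named after their values were seen. The test of the genotype difference between library sets and the lists without Bap1LysM preOC replicate 1 were also added then. Where a fit leaves 1 library in an arm, that library is assumed to vary like the other groups.

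Deviations from group means were correlated between same-numbered libraries, at 0.293 to 0.613 in preOC numbers 1, 2, 4, 5 and 6. The values were 0.215 to 0.43 in BMMs and 0.143 to 0.293 for the Bap1flox RANKL response. For preOC numbers 4 and 6, however, the highest correlation with another number (0.537 and 0.544) was above their own (0.293 and 0.367). Within preOC replicates 4 to 6 alone the same-number values were 0.001, -0.087 and 0.022. The numbers were taken to pair libraries in the replicate block, an alternative, and the main fits held no such term. Alternatives were voomWithQualityWeights of limma 3.58.1, DESeq2 1.42.0, RLE factors, other filters, 1 fit of all 17 libraries, a term for library set, each set by itself, the replicate block and each library left out. The fits were tested on simulated data. Figures were drawn with matplotlib 3.10.9.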

Additional observations from a re-analysis of the deposited data

Results flagged for a closer look

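Ly6a, the gene of Sca-1, was far higher in 1 library of each preOC group than in the rest. In Bap1flox preOCs replicate 1 held 211 CPM and the next library 43.8 CPM, and in Bap1LysM preOCs replicate 1 held 337 CPM and the next 31.9 CPM. The gap between them took a share of 0.826 and 0.938 of the group's whole range, above the critical values of 0.625 for 6 libraries and 0.71 for 5 (Dixon's test). Of the 16 sets of values tested, 8 genes in 2 groups, chance would give about 1 in 20, and these were the 2 found. Both are replicate 1, which also had the highest Ly6a in each BMM group (149.8 and 414.5 CPM). The summed interferon-stimulated genes were highest there in 3 of the 4 groups, and their part was not tested.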

How the results depend on the processing

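The preOC differences of Cd34 and Kit kept their direction and passed under every alternative except replicates 1 to 3 alone, and Gata2 passed for both RANKL responses with each library left out. By voomWithQualityWeights, 25 other progenitor genes were higher (23.2% of all genes were) and 7 lower in preOCs, and Ly6a there was at -0.82. By the same method Kit did not pass for the RANKL response of Bap1LysM cells. Replicates 1 to 3 alone, where no gene of any kind passed, gave 0 of the 8 genes higher and 0 other progenitor genes in either direction. Replicates 4 to 6 alone gave 20 other progenitor genes higher, beside 13.3% of all genes, and Ly6a at -0.07. The replicate block gave 17 other progenitor genes higher in preOCs, beside 13.7% of all genes, and moved Sox4 past the threshold (0.80, adjusted p = 0.015, edgeR). It changed no other call of the 8 genes. A fit of all 17 libraries put Myb at 0.23 and Gfi1 at 0.16 in the RANKL response of Bap1LysM cells. Without both Bap1LysM replicate 1 libraries, which left 1 Bap1LysM preOC library, Sox4 in that response was 0.18 and Gata2 in the difference of responses 0.23. These alternatives were chosen after seeing the data: without both preOC replicate 1 libraries Ly6a was -0.38, and without all 4 replicate 1 libraries Flt3 (0.04) and Gfi1 (0.01) in Bap1flox, Sox4 (0.18) in Bap1LysM and Gata2 (0.41) in the difference turned. The last fit left 1 Bap1LysM preOC library, whose spread comes from the other groups, so no count of calls is given for it.

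Leaving out a library at a time, the genes higher in preOCs numbered 2 to 4 of the 8 and 5 to 19 of the other progenitor genes, those higher after RANKL 1 to 2 of the 8 in Bap1LysM cells and 5 to 9 of the other genes in Bap1flox cells, and 0 to 4 other genes had a higher response in the difference. Log2 fold changes that turned ranged from -1.52 to 1.83 for Ly6a in preOCs. In the Bap1flox response they ranged from -0.23 to 0.38 for Kit, -0.84 to 0.03 for Flt3, -0.45 to 0.09 for Myb, -0.44 to 0.38 for Gfi1, -0.59 to 0.03 for Sox4 and -1.52 to 0.21 for Ly6a. In the Bap1LysM response the range was -0.89 to 0.34 for Sox4 and -3.02 to 0.53 for Ly6a, and Gata2 in the difference ranged from -0.69 to 0.31. The cause was not tested. In BMM genotypes, described without a test, Kit ranged from -0.84 to 0.16, Gata2 from -0.26 to 0.35 and Sox4 from -0.36 to 0.12. In preOCs Flt3 and Gfi1 fall under the study's own filter, and with no filter Gfi1 did not pass.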
